A study of Mus musculus with 9 samples.

Results

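The comparison described here asks what Wang Bi granules (WBG), a Chinese herbal preparation given for rheumatoid arthritis, added to the transcriptome of cells that also received tumour necrosis factor alpha (TNF-α, written TNF below). It sets 3 libraries labelled as treated with WBG and TNF-α against 3 libraries treated with TNF-α, both for 24 h, out of 9 libraries in all. The other 3 libraries were untreated, and their values are set beside the results. All 9 come from RAW264.7, described by the labels as a murine macrophage-like line of BALB/c origin, with no dose of WBG or TNF-α in the sources used. Poly-A RNA was sequenced as read pairs, and the deposited values are FPKM, fragments per kilobase of gene model per M (mega) fragments. Of 56289 gene identifiers, 13026 reached an FPKM of 1 in at least 3 of the 9 libraries and were kept.

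TNF binds its receptors on stromal and immune cells and activates the transcription factor NF-kB, which switches on chemokines, adhesion molecules, acute-phase proteins and its own inhibitors. The acute-phase response includes proteins that bind lipid, iron or bacterial products, and it works through NF-kB together with the C/EBP factors and the NF-kB partner kappaB-zeta. Inflamed cells also change how they take up and store iron, through the transferrin receptor, metal reductases, ferritin and the exporter ferroportin. In rheumatoid arthritis, TNF acts on both macrophages and synovial fibroblasts.

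The cells did not carry the defining transcripts of macrophages in any group. Of 20 macrophage markers, 2 (Cd14 and Cd68) reached a mean of 1 FPKM, and Ptprc, Itgam, Adgre1, Tyrobp and Cybb were listed at 0 in all 9 libraries. The summed level of the macrophage list ran from 6.37 to 7.64 FPKM in untreated libraries, from 7.28 to 8.37 in TNF libraries and from 8.25 to 10.8 in TNF plus WBG libraries, most of it Cd14, and its part in the results was not tested. Of 18 fibroblast markers, 14 were kept, with a median of 72.7 FPKM over the list. Lum was listed at 0, Thy1 was at most 0.0687 FPKM and Fap at most 0.0837 FPKM in any library, and Loxl1 was below the filter. No gene of the lymphocyte, the epithelial and endothelial, or the neutrophil and mast cell lists was kept. All 3 groups shared this profile, which differs from what the label RAW264.7 describes.

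The 9 libraries had 12611 to 12737 genes at 1 FPKM or more and FPKM sums of 427781 to 436809. Low values fell on steps which, if 1 step is 1 fragment, correspond to 18.9 to 26.1 M fragments per library. No TNF or TNF plus WBG library stood apart from the other 5 by 2-fold in more than 9 genes per direction, out of 9088 to 9106 genes at a group mean of 5 FPKM or more. The labels do not say that replicates were separate cultures, so p-values measure the spread between these samples only, which may be technical. Exons of 4890 of the genes kept overlap those of another gene, and reads could then be shared; this is named beside the called genes it touches. FPKM shows relative RNA abundance, and fewer cells of a type and less RNA per cell cannot be told apart.

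In TNF plus WBG against TNF, 13 of 13026 genes passed an adjusted p of 0.05, 0.0998% of those tested (limma, Benjamini-Hochberg adjustment). Of these, 9 were higher with WBG (0.0691%) and 4 were lower (0.0307%). The genes that rose were the acute-phase gene Saa3, the chemokine Cxcl1, the metal reductase Steap4, the transferrin receptor Tfrc, the actin nucleator Actr3, the secreted phosphoprotein Spp1, and Zmym1, Armt1 and Cbr2. Those that fell were Tmem184b, Abr, Afg3l1 and the clone-named 2210412B16Rik. For comparison, TNF against untreated called 10.6% of the same genes and TNF plus WBG against untreated 9.19%, and both share libraries with the present comparison.

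Most genes differed little between the 2 treated groups. The log2 fold change of FPKM plus 1 lay within 0.25 of 0 for 12008 genes (92.2%), and its median was -0.0026. An unadjusted p under 0.05 was reached by 1180 genes (9.06%). The 3 libraries of 1 group lay wholly above or below those of the other for 1921 genes (14.7%), 916 higher with WBG (7.03%) and 1005 lower (7.72%). On average 6370 genes were higher (48.9%) and 6656 lower (51.1%), and these shares are the background for the gene lists below. Of the genes kept, 351 met the filter only through whichever treated group was higher, and among the called genes these were Saa3 and 2210412B16Rik.

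**Figure D1:**
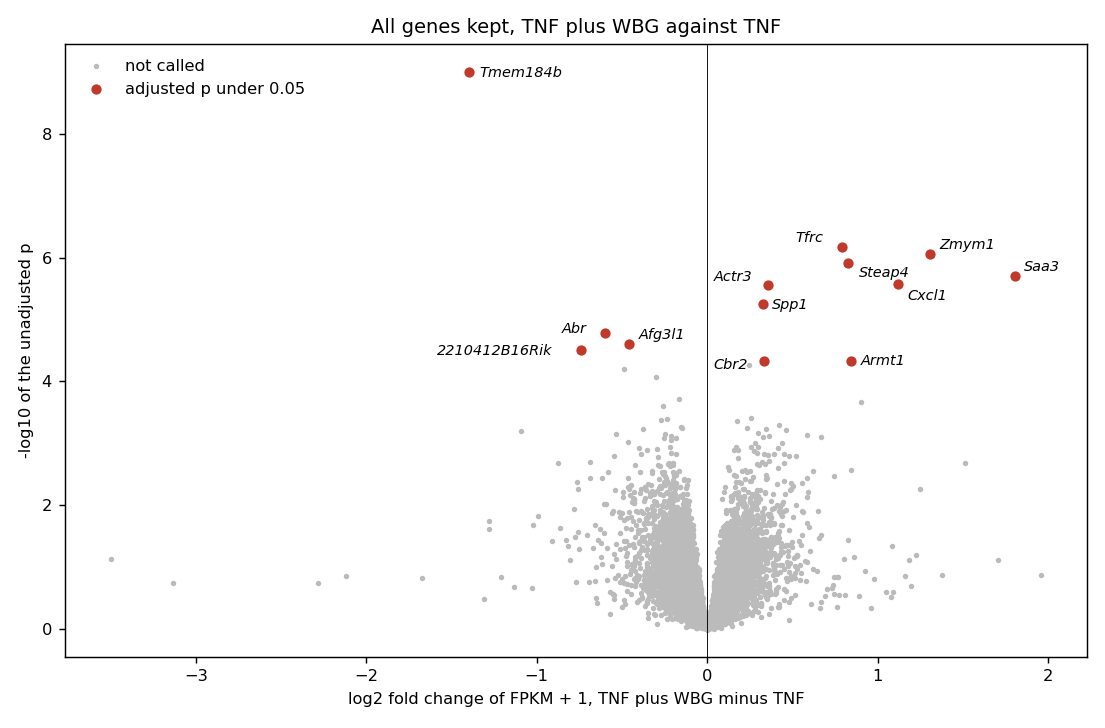
Each point is 1 of the 13026 genes kept, with the log2 fold change of FPKM plus 1 (TNF plus WBG minus TNF) on the x axis and -log10 of the unadjusted limma p on the y axis. The 13 genes that passed the adjusted threshold are red and named: Tmem184b stands highest, at a log2 fold change of -1.40, and Saa3 lies farthest right among them, at 1.81.

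The promoters of the inflammatory genes that rose or lay highest are shown first, with Cxcl10, a chemokine that was lower on average, for contrast. Each sequence is the 250 bases before the gene's start in RefSeq on GRCm38.p6, read 5′ to 3′ on the gene's own strand, and no source used here names the build behind the deposited FPKM. Capitals mark matches to the kappaB consensus or to the C/EBP-type letters TTNNGNAA, on either strand, and overlapping matches are merged.

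Saa3 (chr7:46715677-46715926, minus strand): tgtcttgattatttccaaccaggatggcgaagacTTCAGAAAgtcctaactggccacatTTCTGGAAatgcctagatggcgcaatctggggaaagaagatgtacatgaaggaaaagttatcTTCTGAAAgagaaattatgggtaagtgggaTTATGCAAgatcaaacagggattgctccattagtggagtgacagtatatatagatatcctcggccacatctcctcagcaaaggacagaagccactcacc
Cxcl1 (chr5:90890995-90891244, plus strand): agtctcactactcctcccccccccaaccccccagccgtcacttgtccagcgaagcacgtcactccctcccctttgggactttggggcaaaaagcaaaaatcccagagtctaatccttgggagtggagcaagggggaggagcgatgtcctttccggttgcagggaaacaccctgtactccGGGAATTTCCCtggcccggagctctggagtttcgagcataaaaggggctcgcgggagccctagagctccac
Ccl20 (chr1:83116516-83116765, plus strand): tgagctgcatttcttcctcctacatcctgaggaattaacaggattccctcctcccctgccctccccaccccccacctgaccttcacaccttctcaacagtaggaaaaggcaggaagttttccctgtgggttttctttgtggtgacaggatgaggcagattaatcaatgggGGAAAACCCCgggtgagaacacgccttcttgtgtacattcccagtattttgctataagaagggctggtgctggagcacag
Steap4 (chr5:7960222-7960471, plus strand): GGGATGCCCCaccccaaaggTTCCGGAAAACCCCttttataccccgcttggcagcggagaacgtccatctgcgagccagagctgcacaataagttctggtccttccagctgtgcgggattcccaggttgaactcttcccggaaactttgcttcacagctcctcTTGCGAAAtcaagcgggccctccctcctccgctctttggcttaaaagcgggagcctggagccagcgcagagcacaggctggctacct
Cxcl10 (chr5:92348890-92349139, minus strand): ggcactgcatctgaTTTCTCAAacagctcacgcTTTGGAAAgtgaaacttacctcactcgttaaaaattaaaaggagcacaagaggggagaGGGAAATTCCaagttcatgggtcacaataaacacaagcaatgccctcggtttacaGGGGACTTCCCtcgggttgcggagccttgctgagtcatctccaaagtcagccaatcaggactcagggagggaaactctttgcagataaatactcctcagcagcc

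In the Cxcl1 window, overlapping kappaB matches on both strands lay 71 to 61 bases before the start. Ccl20 held 1 kappaB match, 80 to 71 bases before its start. Saa3 held 4 C/EBP-type matches and no kappaB match, and Steap4 held both kinds. Cxcl10 held both kinds too. These promoters are few and were picked, and whether such letters go with the direction of a gene with WBG was not tested. Over 32851 RefSeq promoters of the same length, 7.25% held the kappaB consensus and 36.8% held TTNNGNAA. A match is a description of the letters and not of binding.

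Saa3 (ENSMUSG00000040026), which encodes the locally made acute-phase protein serum amyloid A3, was listed at 0 in all 3 untreated libraries. It stood at 0.791, 1.71 and 1.43 FPKM in the TNF libraries and at 5.91, 8.42 and 6.73 FPKM in the TNF plus WBG libraries. The lowest WBG library was above the highest TNF library, and the mean rose from 1.31 ± 0.47 to 7.02 ± 1.28 FPKM (SD, n = 3), 5.36-fold. The log2 fold change of FPKM plus 1 was 1.81 ± 0.16 (SE, adjusted p = 0.00514, limma), smaller than the ratio because the pseudocount weighs on values near 1. With only the 6 libraries compared in the fit, the adjusted p was 0.0502.

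Cxcl1 (ENSMUSG00000029380), the chemokine that draws neutrophils through CXCR2, was at 1.37, 1.52 and 1.22 FPKM in untreated libraries. The TNF libraries held 11.3, 10.5 and 9.37 FPKM, and with WBG the values were 20.4, 26.6 and 24.7 FPKM. Every WBG library was above every TNF library, which in turn was above every untreated one. The mean was 2.29-fold that with TNF, 23.9 ± 3.16 against 10.4 ± 0.987 FPKM (SD, n = 3), with a log2 fold change of 1.12 ± 0.11 (adjusted p = 0.00514, limma).

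Steap4 (ENSMUSG00000012428), a membrane reductase of iron and copper, rose in the same order. It was at 8, 8.61 and 8.2 FPKM without treatment, at 25.7, 25.9 and 25.0 with TNF, and at 42.3, 51.9 and 44.8 with TNF plus WBG. The groups did not overlap, and the mean with WBG was 1.81-fold that with TNF (log2 fold change 0.83 ± 0.07, adjusted p = 0.00399, limma). Saa3, Cxcl1, Steap4 and Cbr2 were the 4 called genes in which the WBG libraries lay above TNF libraries that already lay above untreated ones.

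Several genes of the same kind were below the thresholds and are given as values. Lcn2, the iron-siderophore-binding lipocalin 2, was below the filter: it was listed at 0 in all 6 untreated and TNF libraries and was at 0.47, 0.597 and 0.534 FPKM with TNF plus WBG. With no filter it passed the test (log2 fold change 0.62 ± 0.03, adjusted p = 6.5e-04, limma), although it stayed under 1 FPKM throughout. Because its values in those 6 libraries were all 0, without spread, this p says little about the spread between replicates. The same fit also called 4 other genes near 0, Gm29253 and Gm11954 higher and Cfhr2 and Gm22043 lower with WBG; Cfhr2 went from 0.0934, 0.107 and 0.0818 FPKM with TNF to 0. Ccl20, the CCR6 ligand that draws lymphocytes and dendritic cells, was listed at 0 in untreated libraries, at 0.48, 0.449 and 0.837 FPKM with TNF and at 1.54, 1.79 and 2.63 with WBG. Its log2 fold change of 0.90 ± 0.15 had an adjusted p of 0.154 (limma). The treated groups did not overlap, which the filter had fixed, since Ccl20 was kept only through its WBG libraries.

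The list of acute-phase and kappaB-zeta type genes names 22 genes, of which 10 were kept. Saa3 and Steap4 were called higher and none lower. On average 8 members were higher and 2 lower, the libraries did not overlap for 8 members, all higher (Saa3 among them, kept through its WBG libraries), and the median log2 fold change was 0.26 against -0.0026 over all genes. The list was drawn up with these results known, so its direction is no independent evidence.

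Among its regulators, Cebpd, a C/EBP transcription factor, was at 11, 10.8 and 11.4 FPKM with TNF and at 13.2, 15.7 and 14.2 with WBG (log2 fold change 0.35 ± 0.07, adjusted p = 0.262, limma). Cebpb differed by 0.16 ± 0.05 on the same scale, and Nfkbiz, which encodes kappaB-zeta, by 0.24 ± 0.07. Zc3h12a, the RNase regnase-1 that degrades inflammatory transcripts, was at 10.5, 9.78 and 10.3 FPKM with TNF and at 12.7, 12.8 and 12.6 with WBG (0.29 ± 0.09). None of these 4 passed the test, and in each the WBG libraries lay above the TNF libraries. Lbp, which carries bacterial lipopolysaccharide (-0.08 ± 0.06), and the serine protease inhibitor Serpina3g (-0.08 ± 0.15) overlapped between the groups. Exons of Cebpd overlap Spidr, those of Cebpb overlap Tmem189, and the counting method is not given, so reads could be shared.

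**Figure D2:**
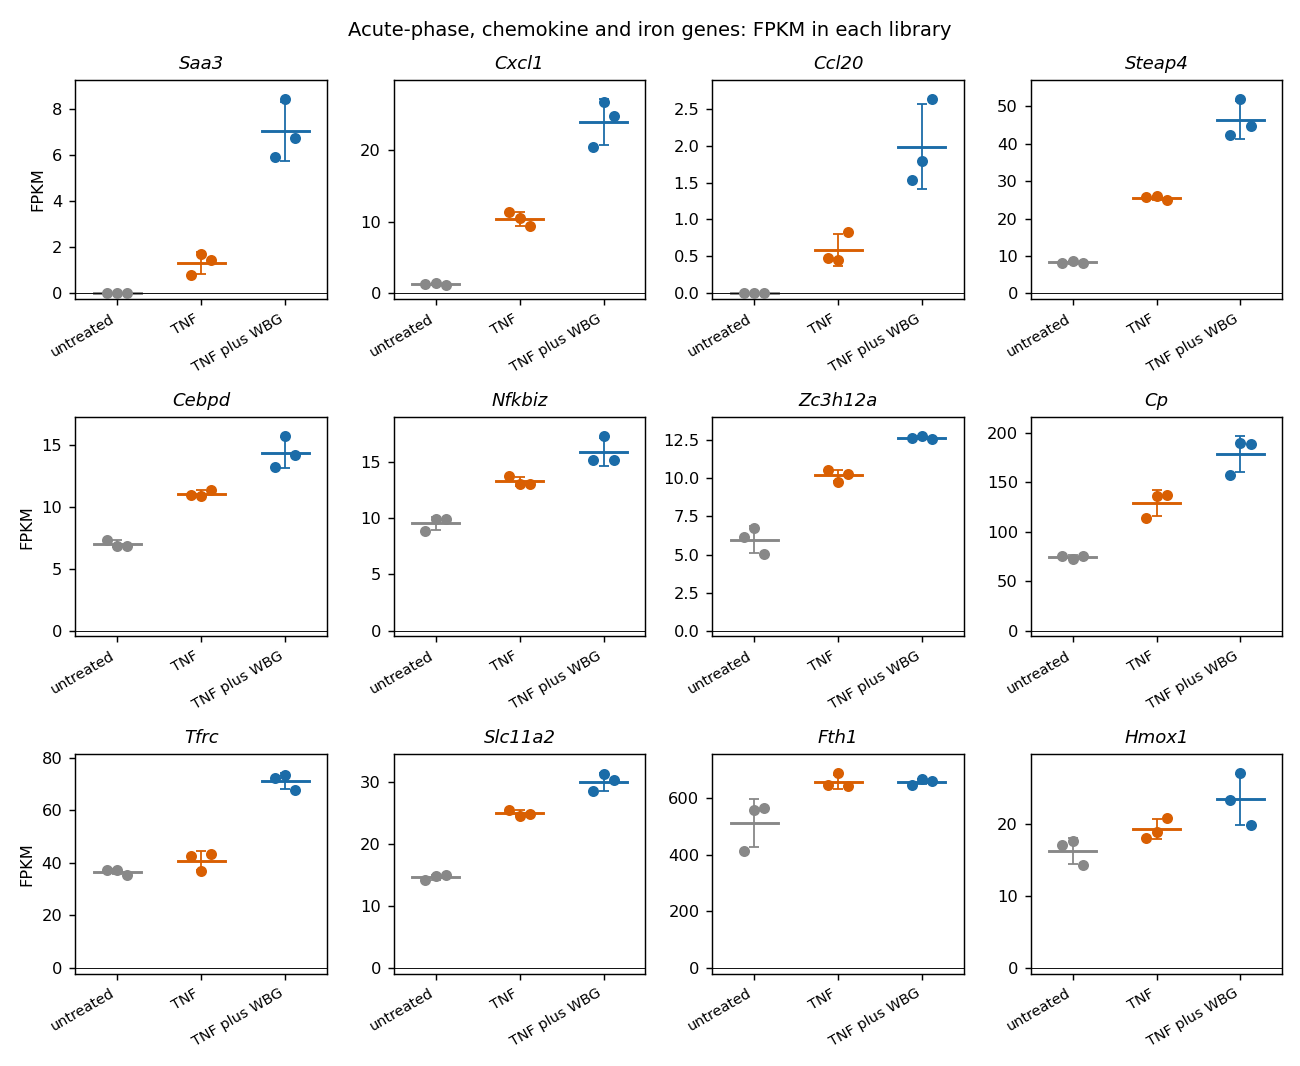
FPKM (y axis, from 0) of 12 acute-phase, chemokine and iron genes in each library of the 3 groups; points are libraries, horizontal bars means and whiskers SD (n = 3). Saa3 and Cxcl1 step up from untreated to TNF to TNF plus WBG. Tfrc is higher in the WBG libraries (67.8 to 73.2 FPKM) than in either other group, and Fth1 is alike in both treated groups.

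Among the chemokines, Cxcl1 stood alone as a call. Of 30 chemokine genes 11 were kept, 1 was called higher and none lower, 3 were higher and 8 lower on average, and the median log2 fold change was -0.13. The median ran from -0.18 with the stricter filter to -0.07 with a pseudocount of 5. Without overlap between the groups, Cxcl1 was higher and 4 were lower. Ccl20 was also higher without overlap, but it met the filter of 1 FPKM only through the WBG libraries and so had to differ. The 4 lower ones were the monocyte attractants Ccl2, Ccl7 and Ccl9 and the CXCR3 ligand Cxcl10.

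Ccl2 was at 265, 262 and 269 FPKM with TNF and at 230, 226 and 251 FPKM with WBG, against 32.7 to 38.1 FPKM untreated. The log2 fold change between the treated groups was -0.17 ± 0.06 (adjusted p = 0.491, limma). Cxcl10 was at 6.60, 7.52 and 5.99 FPKM with TNF and at 4.22, 4.77 and 5.19 with WBG (-0.43 ± 0.12, adjusted p = 0.423), and Ccl7 was at -0.21 ± 0.06. These genes kept most of the level that came with TNF, and none passed the test. The neutrophil chemokines next to Cxcl1 in function were near 0: Cxcl2 was at most 0.213 FPKM and Cxcl5 at most 0.146 FPKM in any library, and Cxcl3 was listed at 0.

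Classical TNF target cytokines were scarce in all groups. Tnf itself was listed at 0 in all 9 libraries, Il1b was at most 0.0079 FPKM and Il6 at most 0.0779 FPKM. Nos2, the inducible nitric oxide synthase, was below the filter, at 0.492, 0.356 and 0.404 FPKM with TNF and at 0.565, 1.87 and 0.62 FPKM with WBG. The second WBG library held the only value over 1. Of 25 cytokine and growth factor genes, 9 were kept, and Spp1 alone was called. All 9 were higher on average with a median log2 fold change of 0.10, but without WBG replicate 2 only 6 were higher and the median was 0.01, and without WBG replicate 3 it was 0.16.

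Spp1 (ENSMUSG00000029304), the secreted phosphoprotein osteopontin, was at 93.0, 92.2 and 90.5 FPKM untreated, at 83.3, 78.6 and 80.0 with TNF and at 102, 102 and 99.6 with WBG. Its WBG libraries lay above both other groups, 1.26-fold over TNF (log2 fold change 0.33 ± 0.03, adjusted p = 0.00917, limma). Without TNF replicate 2 the adjusted p was 0.0578, without TNF replicate 3 it was 0.0647, and without TNF plus WBG replicate 1 it was 0.0523. With only the 6 libraries it was 0.077, and without the trend in limma 0.0659. Exons of Spp1 overlap the predicted gene Gm42793. Among its list-mates, the macrophage growth factor Csf1 was at 54.9, 60.3 and 52.5 FPKM with TNF and 56.5, 56.4 and 55.3 with WBG (0.01 ± 0.06).

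Tfrc (ENSMUSG00000022797), the transferrin receptor that brings iron into cells, was at 37.1, 37.1 and 35.4 FPKM untreated and at 42.3, 36.7 and 43.1 FPKM with TNF. With TNF plus WBG it was at 72.2, 73.2 and 67.8 FPKM. The untreated and TNF libraries overlapped, and all WBG libraries stood above both. The mean was 1.74-fold that with TNF, 71.1 ± 2.89 against 40.7 ± 3.5 FPKM (SD, n = 3), with a log2 fold change of 0.79 ± 0.06 (adjusted p = 0.00384, limma).

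Of 30 genes of iron uptake, storage and export, 23 were kept, and Tfrc and Steap4 were called higher and none lower. On average 13 were higher and 10 lower, and the median log2 fold change was 0.08, or 0.05 without TNF replicate 2 and 0.04 without TNF replicate 3. Without overlap 6 were higher and 3 lower. Slc11a2, the divalent metal importer DMT1, was at 25.6, 24.6 and 24.8 FPKM with TNF and at 28.6, 31.3 and 30.4 with WBG (0.26 ± 0.05, adjusted p = 0.249, limma), and its exons overlap Gm5475.

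Ceruloplasmin (Cp), a copper ferroxidase, was at 114, 136 and 137 FPKM with TNF and at 157, 189 and 188 with WBG, without overlap (0.46 ± 0.09, adjusted p = 0.262, limma), and its exons overlap Hps3. The ferritin light chain Ftl1 was at 0.13 ± 0.03 and the mitochondrial iron importer Slc25a37 at 0.13 ± 0.05, both without overlap. The ferritin heavy chain Fth1 was at 644, 687 and 641 FPKM with TNF and 647, 666 and 660 with WBG, a log2 fold change of 0.00 ± 0.10. The exporter ferroportin, Slc40a1 (0.23 ± 0.11), and the haem-degrading enzyme Hmox1 (0.26 ± 0.12) overlapped between the groups. Other members of the Steap family lay in the opposite direction to Steap4 without passing the test: Steap1 was at -0.29 ± 0.07 and Steap2 at -0.11 ± 0.05, both without overlap.

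Actr3 (ENSMUSG00000026341), which encodes Arp3 of the actin-nucleating Arp2/3 complex, rose above both other groups. It was at 70.7, 67.0 and 69.7 FPKM untreated, at 71.3, 71.1 and 69.5 with TNF and at 89.2, 91.7 and 91.1 with WBG, 1.28-fold the TNF mean (log2 fold change 0.36 ± 0.03, adjusted p = 0.00514, limma). No other gene of the complex or its activators was called. Of 29 kept, 14 were higher and 15 lower on average, and the median was 0.00. The subunit genes Arpc5 (0.12 ± 0.05) and Arpc1a (-0.13 ± 0.05) lay on opposite sides of 0.

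Abr (ENSMUSG00000017631) fell. It was at 17.3, 16.6 and 18.3 FPKM untreated, at 17.5, 17.2 and 17.7 with TNF and at 10.4, 10.7 and 12.6 with WBG, 0.644 of the TNF mean (log2 fold change -0.60 ± 0.07, adjusted p = 0.0239, limma). Its WBG libraries lay below both other groups. The adjusted p passed 0.05 when single libraries were left out: 0.0716 without untreated replicate 1, 0.0769, 0.0986 and 0.145 without TNF replicates 1, 2 and 3, and 0.0818 and 0.101 without TNF plus WBG replicates 1 and 2. It was 0.126 with only the 6 libraries and 0.0564 with no filter, and exons of Abr overlap Gm26780.

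Tmem184b (ENSMUSG00000009035), which encodes a multi-pass membrane protein, had the smallest p of all. It was at 43.5, 39.6 and 40.8 FPKM untreated and at 45.1, 44.3 and 46.0 with TNF, and with TNF plus WBG it was at 17.6, 16 and 15.9 FPKM. The WBG libraries stood apart below both groups, at 0.366 of the TNF mean and 0.4 of the untreated mean. The log2 fold change was -1.40 ± 0.05 (adjusted p = 1.3e-05, limma).

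Zmym1 (ENSMUSG00000043872), a zinc finger gene of the MYM type, rose to values that overlapped the untreated ones. It was at 6.39, 5.64 and 6.93 FPKM untreated, at 1.67, 1.92 and 2.41 with TNF and at 6.96, 6.23 and 6 with WBG. It was 3.2-fold the TNF mean (log2 fold change 1.31 ± 0.11, adjusted p = 0.00384, limma). Exons of Zmym1 overlap the predicted gene Gm12940. Afg3l1, a subunit gene of the mitochondrial m-AAA protease, was the other called gene whose WBG and untreated libraries overlapped.

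Afg3l1 (ENSMUSG00000031967) was at 14.5, 15.5 and 14.4 FPKM untreated, at 19.7, 19.8 and 19.9 with TNF and at 13.2, 15.2 and 14.1 with WBG (log2 fold change -0.46 ± 0.06, adjusted p = 0.0326, limma). Its TNF libraries lay above both other groups. Of 25 genes of mitochondrial proteolysis and quality control it alone was called, with its partner genes Afg3l2 at 0.06 and Spg7 at -0.17 ± 0.09.

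Armt1 (ENSMUSG00000061759), a protein carboxyl methyltransferase gene, was at 7.06, 9.97 and 7.31 FPKM untreated, at 6.08, 5.20 and 5.47 with TNF and at 10.5, 10.7 and 11.3 with WBG (log2 fold change 0.85 ± 0.11, adjusted p = 0.0476, limma). Cbr2 (ENSMUSG00000025150), a mitochondrial carbonyl reductase gene, was at 30.3, 30.4 and 27.9 FPKM untreated, at 37.4, 38.4 and 38.1 with TNF and at 47.6, 46.8 and 49.9 with WBG (0.33 ± 0.05, adjusted p = 0.0476). The clone-named 2210412B16Rik (ENSMUSG00000107216) was at 1.23, 1.71 and 1.46 FPKM with TNF and at 0.513, 0.503 and 0.403 with WBG, below the 0.926 to 1 FPKM of untreated libraries (-0.74 ± 0.09, adjusted p = 0.0363). In all 3 the WBG libraries lay outside the range of both other groups. For 2210412B16Rik the filter favoured the gap to TNF, since it was kept only through its TNF libraries.

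These last calls, with that of Afg3l1, lay near the threshold and were lost in most omissions of 1 library. Afg3l1 lost its call in 7 of the 9 omissions, and 2210412B16Rik, Armt1 and Cbr2 each in 8. Without TNF replicate 3 the adjusted p was 0.186 for Afg3l1, 0.187 for 2210412B16Rik, and 0.192 for both Armt1 and Cbr2, and without TNF replicate 2 it was 0.124, 0.124, 0.18 and 0.156 in the same order. Without TNF plus WBG replicate 1 it was 0.087, 0.111, 0.14 and 0.145, and without replicate 3 of that group 0.117, 0.122, 0.164 and 0.138. Without replicate 2 of that group it was 0.111 for 2210412B16Rik, 0.169 for Armt1 and 0.111 for Cbr2, and without TNF replicate 1 it was 0.0912 for Afg3l1, 0.0802 for Armt1 and 0.152 for Cbr2. Without untreated replicate 1 it was 0.08, 0.0848, 0.0716 and 0.0848 in the first order. Without untreated replicate 2 it was 0.0889 for 2210412B16Rik and Cbr2, and without untreated replicate 3 it was 0.0698 for Afg3l1 and 0.0792 for both 2210412B16Rik and Armt1. Other settings ended these calls too: with only the 6 libraries the adjusted p was 0.138 for Afg3l1, 0.204 for 2210412B16Rik and 0.113 for Cbr2, and with no filter it was 0.0564, 0.0823, 0.12 and 0.0704 in the first order. Without the trend it was 0.0552 for Afg3l1, 0.0713 for Armt1 and 0.117 for Cbr2, and for Cbr2 it was 0.0621 with median-ratio scaling and 0.0502 with a pseudocount of 0.1. By contrast Tmem184b, Tfrc, Zmym1, Steap4, Saa3, Cxcl1 and Actr3 stayed called whichever of the 9 libraries was left out.

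**Figure D3:**
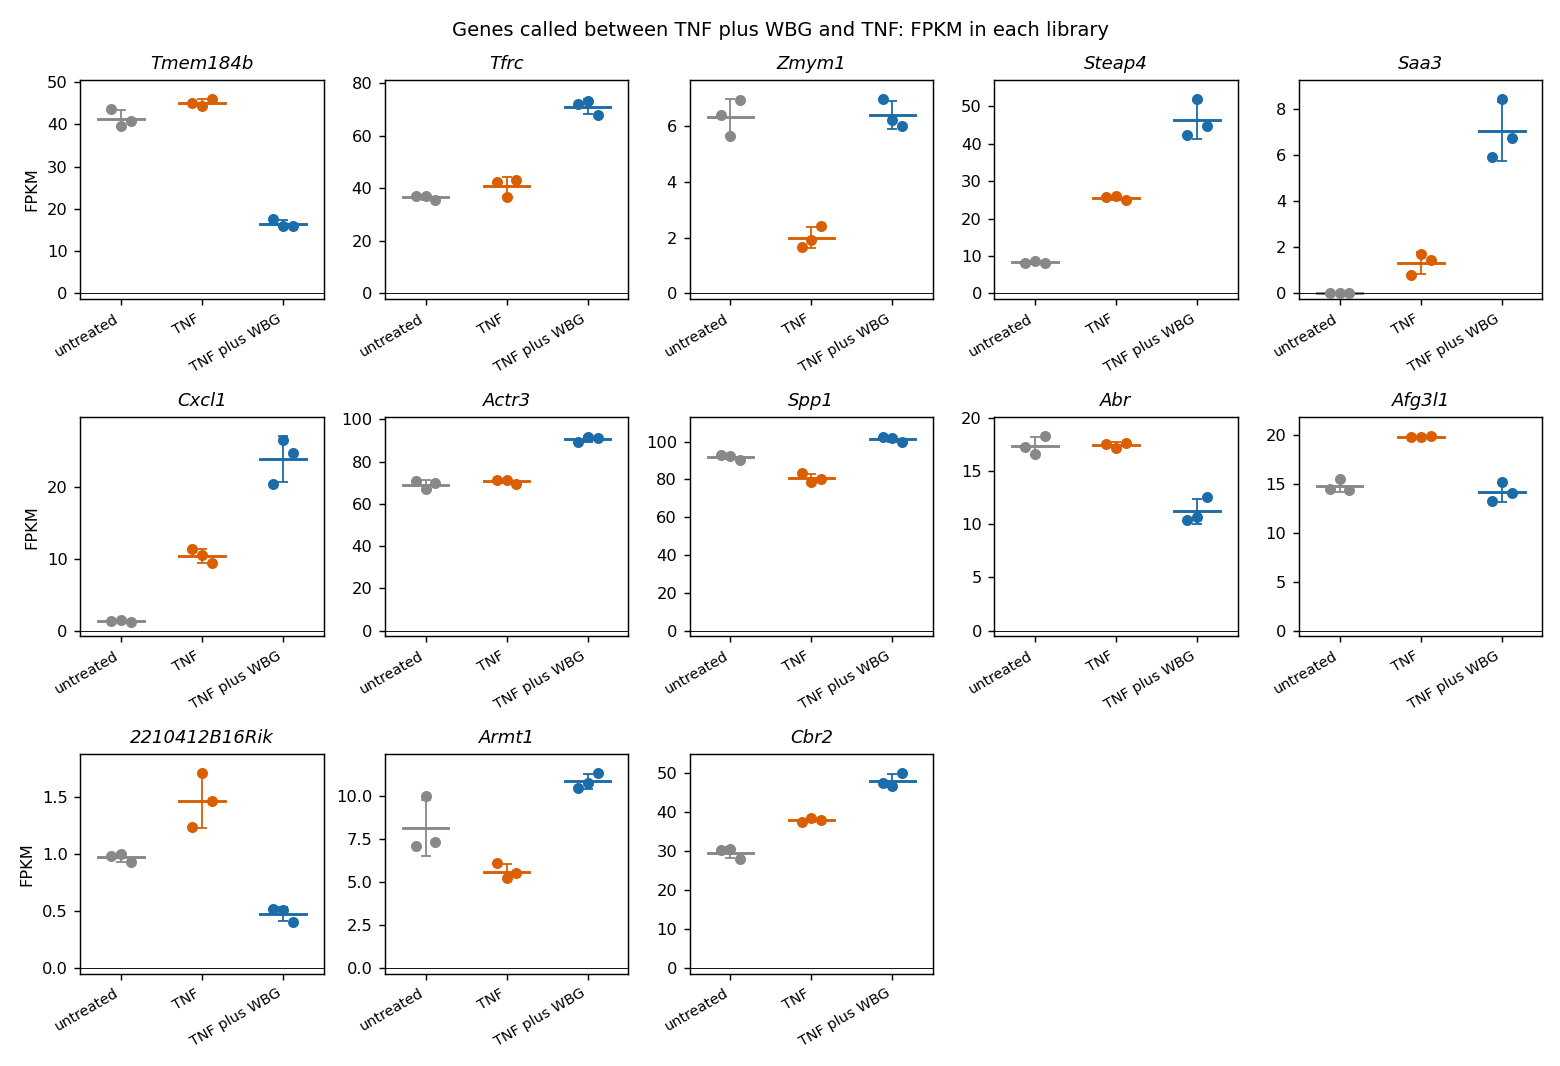
FPKM (y axis, from 0) of the 13 called genes in each library, ordered by p; points are libraries, horizontal bars means and whiskers SD (n = 3). The TNF plus WBG libraries lie above both other groups in 8 genes, below both in 3, and overlap the untreated libraries in Zmym1 and Afg3l1.

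Just outside the threshold lay 12 genes that did not pass. Atf5, a stress-response transcription factor, was at 42.7, 45.0 and 43.7 FPKM with TNF and at 52.5, 52.1 and 51.9 with WBG (log2 fold change 0.25 ± 0.03, adjusted p = 0.0502, limma), and its exons overlap Il4i1 and Nup62. The kinase gene Plk2 was at 38.8, 41.4 and 42.2 FPKM with TNF and at 33.2, 32.4 and 33.0 with WBG (-0.30 ± 0.04, adjusted p = 0.07). Tropomyosin 1 (Tpm1) was at 217, 218 and 218 FPKM with TNF and at 194, 193 and 195 with WBG (-0.16 ± 0.03, adjusted p = 0.148).

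Ccn1, a secreted matricellular protein gene, was at -0.26 ± 0.04 (adjusted p = 0.173, limma), with WBG libraries at 62.7 to 65.9 FPKM near the untreated 62.6 to 66.6. The proteasome ATPase Psmc4 (-0.24 ± 0.04), the antiviral membrane protein Bst2 (-0.27 ± 0.05) and the ribosomal protein Rps24 (0.17 ± 0.03) each had an adjusted p of 0.249, as did Slc11a2. The zinc finger gene Zfp691 (0.42 ± 0.08) and the cyclophilin Ppic (-0.16 ± 0.03) had one of 0.262. Ccl20 and a predicted gene complete the 12. In all of those named the groups did not overlap, which the filter had fixed for Ccl20.

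Genes of NF-kB feedback and the TNF response, a list that also holds kinases and receptors of the pathway, showed no call in either direction. Not all of its members rose with TNF: Ikbkb was at 0.98 and Map3k14 at 0.91 of the untreated mean. Of 27 kept, 11 were higher and 16 lower on average, with a median of -0.04, and 2 higher and 4 lower without overlap. Nfkbia, the inhibitor IkB-alpha, was at 78.7, 81.7 and 80.4 FPKM with TNF and 74.1, 77.5 and 74.5 with WBG (log2 fold change -0.09 ± 0.05), far above the untreated 22.8 to 26. Vcam1, an adhesion molecule, was at -0.20 ± 0.05 and the subunit gene Nfkb2 at -0.14 ± 0.06, while Tnip2, an inhibitor of the pathway, was at 0.31 ± 0.12.

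Interferon-stimulated genes lay slightly lower with WBG. Of 20 kept, none was called, 17 were lower and 3 higher on average, 8 were lower and none higher without overlap, and the median was -0.13. The mean log2 level of the list was 3.27, 3.31 and 3.29 in TNF libraries and 3.22, 3.20 and 3.15 in WBG libraries, both far above the untreated 2.69 to 2.76. Bst2 was at 85.3, 91.3 and 92.5 FPKM with TNF and 72.1, 71.7 and 78.8 with WBG. The RNA sensor gene Ddx58 was at 23.1, 23.5 and 21.9 with TNF and 19.9, 18.5 and 19.8 with WBG (-0.22 ± 0.05, adjusted p = 0.353, limma). With other settings the number lower ranged from 10 to 18 and the median from -0.15 to -0.08.

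Antigen presentation genes were placed likewise. None of 14 kept was called, 11 were lower and 3 higher on average, 6 were lower without overlap and none higher, and the median was -0.13. Cd74, which chaperones MHC class II molecules, was at 14.4, 15.7 and 15 FPKM with TNF and at 8.41, 11.4 and 10.7 with WBG, against 0.982 to 1.26 untreated (-0.53 ± 0.10, adjusted p = 0.263, limma), with exons that overlap Mir5107. The class II genes H2-Aa, H2-Ab1 and H2-Eb1 were near 0, at most 0.0395, 0.0658 and 0.185 FPKM in any library. H2-DMa was at 0.16 ± 0.07, with overlap. Nlrc5, the activator of MHC class I genes, was at -0.21 ± 0.09, and the class I light chain B2m was at 423, 447 and 430 FPKM with TNF and 400, 395 and 403 with WBG (-0.12 ± 0.03).

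Glycolysis and hypoxia genes lay higher on average with WBG, though none passed the test. Of 41 kept, 38 were higher and 3 lower, 9 were higher without overlap and none lower, and the median was 0.17. The mean log2 level of the list was 5.58, 5.61 and 5.59 in TNF libraries and 5.83, 5.94 and 5.6 in WBG libraries, so WBG replicate 3 lay within the TNF range. Untreated libraries were at 5.50, 5.66 and 5.40. Without WBG replicate 2 the median was 0.12 and 34 were higher, and without WBG replicate 3 the median was 0.26.

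Within that list, Slc2a1, the glucose transporter GLUT1, was at 30.3, 28.9 and 29.8 FPKM with TNF and at 35.3, 43.5 and 30.8 with WBG (0.28 ± 0.12, adjusted p = 0.547, limma). Ankrd37, a HIF target, was at 5.98, 7.12 and 5.65 with TNF and 8.63, 12.2 and 7.68 with WBG, yet untreated libraries ran from 4.53 to 10.3 (0.52 ± 0.25). Car12, a carbonic anhydrase, was at 0.42 ± 0.17, the mitophagy receptor Bnip3l at 0.29 ± 0.09 and hexokinase Hk1 at 0.16 ± 0.05. Gapdh was at 422, 478 and 421 FPKM with TNF and 487, 599 and 474 with WBG, with overlap (0.23 ± 0.13). The transcript of the hypoxia factor itself, Hif1a, was at -0.21 ± 0.09, with overlap.

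DNA replication genes lay lower on average with WBG, and near the untreated level. Of 50 kept none was called, 42 were lower and 8 higher, 19 were lower without overlap and none higher, and the median was -0.12. The mean log2 level was 3.33, 3.31 and 3.36 untreated, 3.51, 3.41 and 3.45 with TNF and 3.38, 3.31 and 3.35 with WBG. Rrm1, a ribonucleotide reductase subunit, was at 20.9, 21.1 and 20.4 FPKM with TNF and at 18.0, 17.0 and 18.3 with WBG (-0.21 ± 0.04, adjusted p = 0.263, limma). The other subunit gene, Rrm2, was at -0.43 ± 0.12, the helicase-complex gene Gins2 at -0.46 ± 0.15 and Mcm5 at -0.27 ± 0.08. The largest difference of the list went the other way, at 0.92, with libraries that overlapped.

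Mitosis genes showed less of this: of 36 kept, 24 were lower and 12 higher on average, 2 were lower and 1 higher without overlap, and the median was -0.04. The securin gene Pttg1 was at -0.47 ± 0.24 and the kinetochore gene Ndc80 at -0.23 ± 0.12. The difference between these lists was not tested. Across settings the DNA replication median ran from -0.15 to -0.08 and that of mitosis from -0.09 to 0.01.

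**Figure D4:**
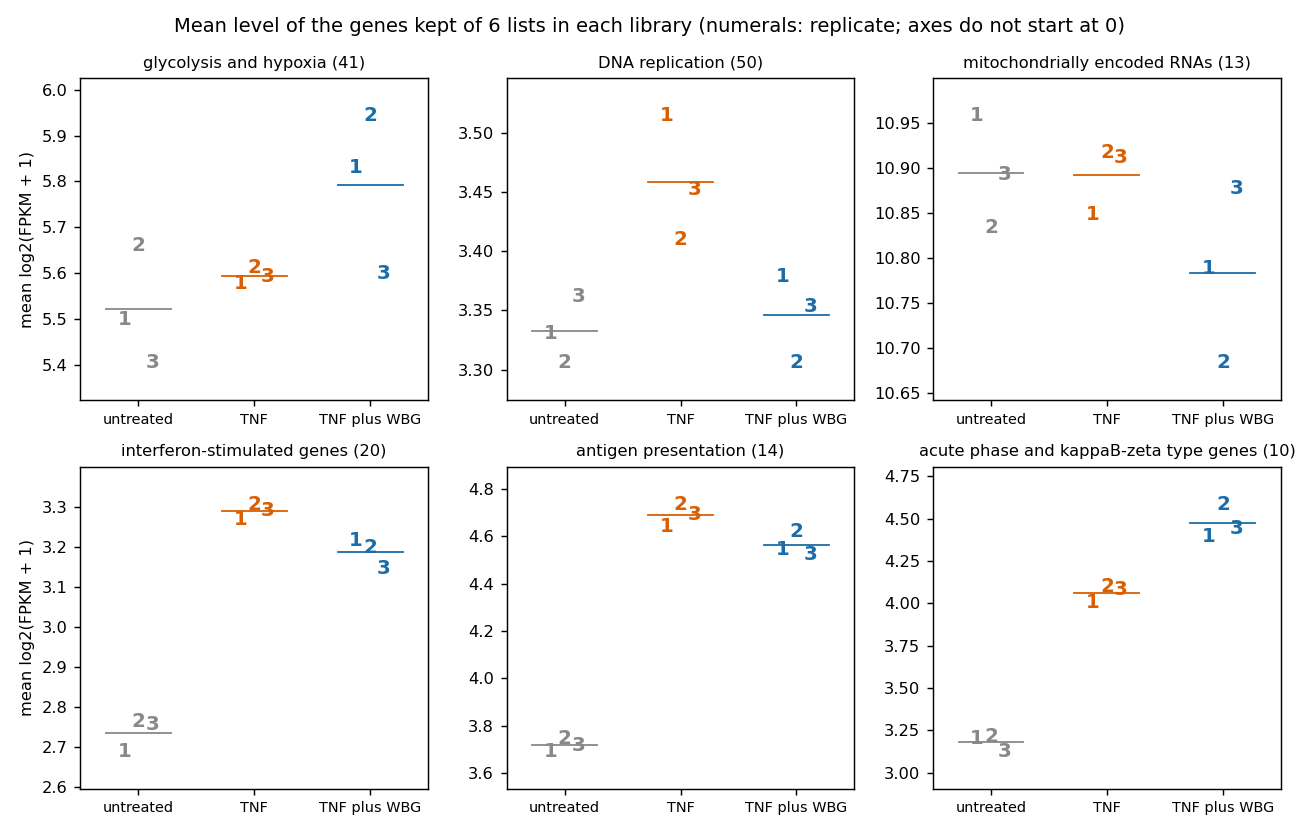
Mean log2(FPKM + 1) of the genes kept of 6 lists (y axis, which does not start at 0) in each library of the 3 groups; numerals give the replicate and horizontal bars the group mean. The glycolysis and hypoxia level of WBG replicate 3, 5.6, falls among the TNF libraries. The acute-phase levels with WBG (4.39 to 4.59) are all above those with TNF (4 to 4.10). The acute-phase list was drawn up with these results known and includes the called genes Saa3 and Steap4.

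Mitochondrially encoded RNAs were lower on average for 12 of 13, none called, with 5 lower without overlap and a median of -0.12. Their mean log2 level was 10.85, 10.92 and 10.91 with TNF and 10.79, 10.68 and 10.88 with WBG, so WBG replicate 3 lay within the TNF range here too. mt-Cytb, the cytochrome b transcript, was at -0.16 ± 0.04 and mt-Nd3, a complex I subunit, at -0.33 ± 0.10, both without overlap. Without WBG replicate 2 the median was -0.06. Nuclear genes of oxidative phosphorylation had a median of -0.01 over 34 kept, with none called, Cox7a2 at 0.30 ± 0.09 and Atp5c1 at -0.24 ± 0.12.

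Sterol genes, which respond to the SREBP factors, were higher on average for 24 of 33, with none called, 6 higher and 1 lower without overlap and a median of 0.05. Without WBG replicate 3 the median was 0.10, and without WBG replicate 1 it was 0.03. Acat2, which makes acetoacetyl-CoA, was at 63.4, 41.8 and 47.4 FPKM with TNF and at 66.4, 77.7 and 68.1 with WBG (0.49 ± 0.13, adjusted p = 0.414, limma). Pmvk, a mevalonate pathway kinase, was at 0.25 ± 0.09.

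Stress-response genes were split. Of 31 genes of the unfolded protein and integrated stress response 19 were higher and 12 lower, none called, and the median was 0.04. Trib3, a target of ATF4, was at 8.09, 8.14 and 8.35 FPKM with TNF and at 11.8, 11.4 and 9.34 with WBG (0.36 ± 0.08, adjusted p = 0.312, limma), and without WBG replicate 3 its adjusted p was 0.0395. Ppp1r15a, the phosphatase subunit GADD34, was at 0.39 ± 0.14, and the endoplasmic reticulum chaperone Calr at -0.15 ± 0.03. Heat shock genes had a median of 0.01 over 28 kept, with Hsp90aa1 at 0.16 ± 0.03 and Hspa1b at -0.10 ± 0.07.

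Herbal extracts can contain ligands of NRF2, of the aryl hydrocarbon receptor or of steroid receptors. The lists related to these showed 1 call. Of 28 NRF2 and antioxidant genes none was called and the median was 0.02. Osgin1, an oxidative stress gene, was at 3.61, 0.996 and 1.41 FPKM with TNF and at 3.94, 4.22 and 3.79 with WBG (0.83 ± 0.34, adjusted p = 0.528, limma), inside or near the untreated range of 1.78 to 4.76. The peroxidase Prdx6 was at 0.21 ± 0.10. Of 24 genes of xenobiotic metabolism and the aryl hydrocarbon receptor the carbonyl reductase gene Cbr2 was called, and the median was -0.01. On average 11 were higher and 13 lower, and without overlap 1 was higher and 2 lower. Cyp1b1 was among the lower ones, at -0.12 ± 0.03. Tiparp, of the same list, was higher on average, at 0.14 ± 0.06, with overlap. Cyp1a1 was at most 0.0323 FPKM and Ahrr at most 0.0090 FPKM in any library.

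Of 18 glucocorticoid receptor targets none was called, 13 were higher and 5 lower, and the median was 0.12. It was 0.06 with a pseudocount of 5 and 0.08 without TNF replicate 2, with 11 higher. The metallothionein Mt1 was at 157, 161 and 151 FPKM with TNF and at 181, 220 and 174 with WBG (0.29 ± 0.08, adjusted p = 0.423, limma), and Pdk4, a kinase of pyruvate dehydrogenase, was at 0.25 ± 0.08. Without overlap 5 were higher and 3 lower. The higher ones included Klf9 at 0.18 ± 0.04 and Per1 at 0.12 ± 0.06, and the lower ones Dusp1 at -0.13 and Sgk1 at -0.14.

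Immediate early genes included Ier3 at 32.8, 33.1 and 29.5 FPKM with TNF and 43.5, 57.3 and 36.7 with WBG (0.49 ± 0.13, adjusted p = 0.411, limma). Atf3 was at 21.5, 19.5 and 21.2 with TNF and 25.3, 23.6 and 28 with WBG (0.29 ± 0.06), and Jun was at 0.17 ± 0.04. Both stayed far below their untreated levels, 62.0 to 63.1 FPKM for Atf3 and 99.0 to 102 for Jun. None of the 29 genes kept was called, and 20 were higher and 9 lower on average.

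Tissue-damaging enzymes of arthritis were not called in either direction. Of 29 matrix proteases and inhibitors 18 were lower and 11 higher, 6 lower and 2 higher without overlap, and the median was -0.03. Mmp9, gelatinase B, was at 3.95, 4.22 and 4.25 FPKM with TNF and at 2.82, 3.39 and 3.13 with WBG, against 0.149 to 0.231 untreated (-0.32 ± 0.08, adjusted p = 0.376, limma). Mmp14 was at -0.24 ± 0.06 and the aggrecanase Adamts4 at -0.14 ± 0.04, both without overlap. The 2 higher without overlap were Adam8 (0.17 ± 0.09) and Adam10 (0.10 ± 0.04). Mmp3, below the filter, was also higher without overlap. It was at 0.316, 0.329 and 0.323 FPKM with TNF and at 0.411, 0.512 and 0.353 with WBG.

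Ptgs2, the inducible cyclooxygenase, was at 4.59, 3.98 and 4.13 FPKM with TNF and at 4.28, 3.56 and 4.08 with WBG, with overlap (-0.08 ± 0.09). Pla2g4a, which frees arachidonic acid, was at 9.26, 9.03 and 9.68 with TNF and at 8.06, 6.41 and 7.34 with WBG (-0.32 ± 0.08, adjusted p = 0.376, limma), and the prostaglandin D synthase Ptgds was at -0.26 ± 0.10. None of the 12 prostaglandin and nitric oxide genes kept was called. Of 26 osteoclast and bone genes 9 were kept, and Spp1 alone was called.

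Fibroblast and matrix genes differed little. Of 30 collagens and matrix glycoproteins 16 were higher and 14 lower on average, with a median of 0.01, yet 9 were lower and none higher without overlap. Col1a1 was at -0.10 ± 0.05, Col6a1 at -0.10 ± 0.03 and thrombospondin Thbs1 at -0.20 ± 0.05, with fibrillin Fbn1 at -0.12 ± 0.05, none called. Acta2, smooth muscle actin, was at 33.6, 37.0 and 32.5 FPKM with TNF and at 30.2, 26.1 and 28.2 with WBG (-0.28 ± 0.07, adjusted p = 0.357, limma). Of the 14 fibroblast markers kept none was called. On average 5 were higher and 9 lower, 6 were lower and none higher without overlap, and the median was -0.06.

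The lysosome, p53 and ribosomal protein lists had no calls and medians between -0.03 and 0.02. Of 34 lysosome and autophagy genes 10 were lower and 2 higher without overlap, with the regulator Tfeb at -0.27 ± 0.12 and Becn1 at -0.25 ± 0.09. Of 25 p53 targets Plk2 had the largest difference without overlap, and Sesn2 was at 0.26 ± 0.07. Of 47 cytosolic ribosomal protein genes 8 were higher and none lower without overlap, led by Rps24 and Rpl10a (0.16 ± 0.04).

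**Figure D5:**
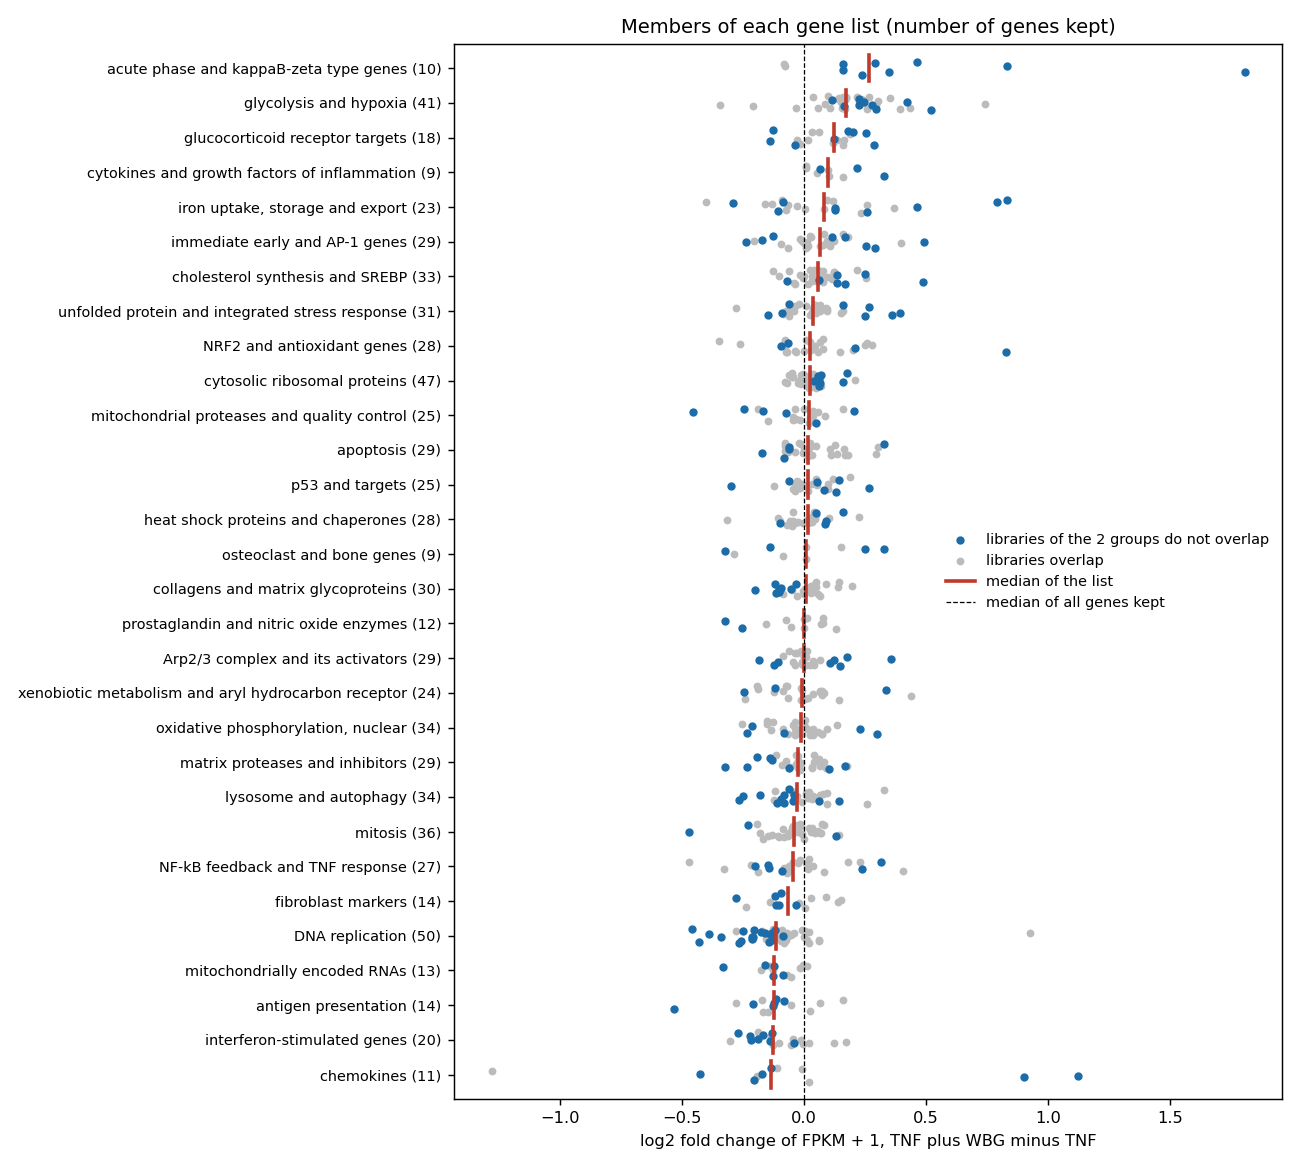
Log2 fold change of FPKM plus 1 (x axis, TNF plus WBG minus TNF) of each gene kept, by list, with the number kept in parentheses; blue points are genes whose libraries do not overlap between the 2 groups, red bars list medians and the dashed line the median of all genes. Saa3 lies at 1.81 in the top row, and Cxcl1 at 1.12 and Ccl20 at 0.90 lie right of the other chemokines in the bottom row.

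Most large differences that failed the test came with libraries that overlapped between the groups. Of 30 genes with a log2 fold change of at least 1 in either direction, 4 were called (Tmem184b, Zmym1, Saa3 and Cxcl1) and 26 were not, and 22 of those 26 overlapped between the groups. The chemokine Cx3cl1 was at 20.2, 23.8 and 20.6 FPKM with TNF and at 4.86, 23.1 and 4.60 with WBG (-1.28 ± 0.47). Without WBG replicate 2 it was called, at -1.97 ± 0.08 (adjusted p = 1.2e-04, limma). Nek7, a kinase of inflammasome assembly, was at 21.0, 22.9 and 21.4 with TNF and at 6.77, 6.68 and 22.5 with WBG, and without WBG replicate 3 it was called, at -1.56 ± 0.05 (adjusted p = 4.6e-05, limma). In Cx3cl1 and Nek7, libraries sat at 1 of a pair of levels, in different replicates, and the same was seen in Map2k7, at 4.96, 16.4 and 5.28 FPKM in untreated libraries. These 3 were picked after their values were seen.

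Such spread was as common in every group: libraries differed at least 2-fold within the group for 123 of 9118 genes at a mean of 5 FPKM or more in the untreated group (1.35%), for 112 in the TNF group (1.23%) and for 118 in the WBG group (1.29%). Single WBG libraries far from the other 5 gave further examples. Adenylate kinase 4 (Ak4) was at 23.8 FPKM in WBG replicate 1 and at 4.34 and 3.59 in the others, Uhmk1 at 2.95 against 14.3 and 14.1, and Pcdhga2 at 35.4 against 0.0075 and 0.0508. Exosc6 was at 0.244 FPKM in WBG replicate 2 against 11.8 and 11.3, Slc10a3 at 1.65 against 6.60 and 8.18, Eif3j2 at 0 against 10.2 and 9.45, and Emp1 at 31.3 against 109 and 97.4. Tpbg was at 7.50 in WBG replicate 3 against 19.6 and 20.4, Tymp at 1.74 against 7.17 and 6.50, and Sco2 at 15.5 against 2.06 and 4.04. None of these was called, and what set them apart was not tested. Among the called genes, the highest and lowest library of a group differed by at most 1.44-fold, except Saa3 in the TNF group, at 2.16-fold.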

How the data were processed

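RNA of 9 libraries was analysed, 3 per group, of which 6 are compared. The authors deposited FPKM per Ensembl gene; per the labels, libraries were poly-A TruSeq, paired-end, Illumina. No source used here names the aligner, counting program, annotation or build. Symbols came from GENCODE M21 (55144 of 56289 identifiers matched; 10 of those kept did not). The file holds no counts. FPKM times length of single-exon genes fell on steps, searched between 12 and 30 M fragments, and 18.4 to 25.8% of values lay at most 0.02 steps from a whole number (4% if evenly spread); multiples of these depths are possible and no gene counts were derived.

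Limma 3.58.1 under R 4.3.3 was run with trend on log2 of FPKM plus 1 in all 9 libraries with group as the only term, two-sided, Benjamini-Hochberg over 13026 genes. The pipeline was tested on simulated data. Errors are SD (n = 3) beside means and SE beside log2 fold changes, and fold values are ratios of mean FPKM. Gene lists (35) are described by counts without a set test. Named genes are those called, the 12 next by p, members of each list (called, or else up to 2 of the largest differences without overlap), 10 genes always given (Gapdh, Hmox1, Nfkbia, Mmp9, Ccl2, Nos2, Ptgs2, Il6, Il1b and Tnf) and 10 with 1 distant WBG library. Other genes named were chosen after their values were seen. Members, lists and tests were chosen with earlier results of these data known. Alternatives were pseudocounts of 0.1 and 5, no filter, quantile normalization, median-ratio scaling, a stricter filter (mean FPKM of 5), only the 6 libraries, no trend, robust limma, a replicate block, and omission of each library. Counts of list members under these settings and the Lcn2 value with no filter were added after seeing the data. Some list members, and 1 list, are not reported here. Promoters were matched by symbol in a RefSeq table. Scripts used matplotlib 3.10.9, pandas 2.3.3, numpy 2.4.6 and python 3.11.15.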

Additional observations from a re-analysis of the deposited data

How the results depend on the processing

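The count of 13 called genes (9 higher, 4 lower) fell to 7 with only the 6 libraries compared in the fit (1 lower) and to 8 with a replicate block (2 lower). Same-numbered TNF and TNF plus WBG libraries deviated together with correlations of 0.107, -0.0092 and -0.0036, so the numbers are not treated as pairs and the block is given here only. Leaving out 1 library at a time, the count ran from 8 to 14, calls lower from 1 to 5 and calls higher from 6 to 9; it was 8 (1 lower) without untreated replicate 1, and 2 were lower without untreated replicate 3. Between 7 and 11 of the 13 were among the calls each time. Other settings gave 9 to 15 calls, and none of the 13 called genes changed direction under the alternatives among the 19 that tested them. Csf1 and Fth1, both near 0, changed sign (-0.04 and -0.02 without TNF replicate 3), and so, each without 1 WBG library, did Ak4, Eif3j2, Emp1, Pcdhga2 and Sco2, none of them called. Atf5 passed with a pseudocount of 5, with no filter, with the stricter filter, with quantile normalization and with robust limma, and Rps24 with quantile normalization. With no filter, 8 of the 13 stayed called and Lcn2, Atf5 and 4 genes near 0 joined them, 2 of these 4 lower. For the 18 lists with a median within 0.05 of 0, alternatives gave medians from -0.16 (prostaglandin genes, 4 left by the stricter filter) to 0.06. Actr3 had an adjusted p of 0.0535 with the replicate block (limma). With FPKM and 3 libraries a group, differences of low genes are the least certain, and the depth behind a value is only inferred.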
